A study of Mus musculus with 9 samples.

Results

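Srf and 9 of its contractile target genes were followed in RNA sequencing of 4T1 primary tumors, for which mice received BI 853520 (BI), an inhibitor of focal adhesion kinase (FAK), or the vehicle alone. The members were chosen by name, as the genes Srf, Acta2, Actg2, Tagln, Myl9, Cnn1, Cnn2, Tpm1, Tpm2 and Flna. All 10 were found by Entrez identifier among the 18755 genes with deposited counts, and all 10 passed the filter on low counts and were among the 13966 genes tested. 4T1 is a metastatic mammary carcinoma cell line of BALB/c origin, and 1000000 of these cells were placed into a mammary fat pad of female BALB/c mice aged 6 to 10 weeks. From day 15 after that, 6 mice were given 50 mg/kg BI by mouth daily for 5 days, and 3 mice were given the vehicle, 0.5% Natrosol, a hydroxyethylcellulose in which BI was also dissolved. Each tumor gave 1 library from a snap-frozen piece, so that carcinoma cells, stroma, vessels and leukocytes were measured together, and tumors with poor RNA had been left out. Tumors are numbered as in the deposited counts, vehicle 1 to 3 and BI 4 to 9.

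Serum response factor (SRF) is a transcription factor that binds the CArG box, a short motif with a core of A and T. Its partners of the MRTF family are held in the cytoplasm by monomeric actin and enter the nucleus when RhoA signaling drives actin into filaments, whereas the ternary complex factors of the ELK family couple SRF to ERK signaling. Together with MRTF or with myocardin, SRF switches on genes for actins, myosin light chains, calponins, tropomyosins and other parts of the contractile cytoskeleton, which in tumors are best known from myofibroblasts, pericytes and vascular smooth muscle, and FAK acts upstream of RhoA at sites where cells adhere to matrix.

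Library totals over all genes were 21727879 to 33850245 counts in vehicle and 16931607 to 22349873 counts in BI tumors. A floor of 3 counts corresponded to at most 0.177 CPM, where CPM is counts per 1000000 counts on genes, and every member was above 3 counts in every tumor. This floor covers counting error only, while the 95% intervals of fold changes come from the fit and include the variation between tumors. Expression is given as CPM after TMM normalization, with the standard deviation (SD) over 3 vehicle or 6 BI tumors. The keratins Krt8 and Krt18 of the 4T1 carcinoma cells were high throughout, with Krt18 between 354 and 627 CPM. The keratin Krt7 lay between 0.895 and 3.01 CPM and the epithelial adhesion molecule Epcam between 1.5 and 10.3 CPM. In bulk tumors, fewer cells of a type and less RNA per cell cannot be told apart. The mice are separate animals, and the labels name no batch.

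The promoters of the members show where SRF may bind, and those with a match to its motif are printed here because they belong to genes that rose, fell and did not pass the test. In the RefSeq promoter table (GRCm38.p6, 250 bases before to 50 after each start), 8 of the 10 members had a window, and Actg2 and Tagln had none. The CArG box, which has the same form on both strands, was present in 3 of these 8 windows (Srf, Myl9 and Cnn2) and in 1.63% of all 32851 windows. A CArG box with 1 other letter in its core was found in the windows of Acta2 and Myl9 and in 8.5% of all windows. The 4 stretches are given 5′ to 3′ on the strand of the gene, upstream of its start, with every such match in capitals:
Srf, chr17:46556195-46556264, minus strand: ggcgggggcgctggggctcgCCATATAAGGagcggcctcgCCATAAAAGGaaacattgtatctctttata
Acta2, chr19:34255378-34255477, minus strand: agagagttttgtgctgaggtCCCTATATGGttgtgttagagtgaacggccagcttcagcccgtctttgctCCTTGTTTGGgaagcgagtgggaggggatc
Myl9, chr2:156775283-156775394, plus strand: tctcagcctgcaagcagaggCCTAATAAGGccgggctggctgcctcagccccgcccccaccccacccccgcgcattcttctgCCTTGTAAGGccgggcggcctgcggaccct
Cnn2, chr10:79988524-79988573, plus strand: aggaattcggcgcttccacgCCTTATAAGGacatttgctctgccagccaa
Srf carried 2 boxes, starting 82 and 62 bases before its start, and Cnn2 carried 1, starting 56 bases before. In Myl9 the box started at 161 bases and the match with 1 other letter at 99 bases before the start, and the matches of Acta2 started at 84 and 34 bases. The windows of Cnn1, Tpm1, Tpm2 and Flna held neither form, which says only that these letters are not in this window.

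After BI treatment, the members did not move in 1 direction. With an adjusted p (Benjamini-Hochberg, all genes tested) no higher than 0.05 in the quasi-likelihood test of edgeR, Acta2 and Myl9 rose, Tpm1 and Cnn2 fell, and the other 6 members did not pass. These 4 of 10 compare with 28.7% of all genes tested, and the 2 rises and 2 falls with 14.6% and 14.1% of all genes. The 5 members best known from smooth muscle (Acta2, Actg2, Tagln, Myl9 and Cnn1) had positive fitted log2 fold changes with a median of 0.35. The 4 that many cell types express (Cnn2, Tpm1, Tpm2 and Flna) had negative ones with a median of -0.28, while the median was 0.09 over all 10 members and -0.00371 over all genes tested. This split of the members was made by hand with earlier results of these data known, so its opposite medians are a description without a test. The signs depend on where single genes were placed. With Tpm2 (-0.22) among the smooth muscle members, these would not all have been positive. Other genes known from smooth muscle, given below, lay on both sides of 0. The groups did not overlap in the 4 members that passed, 2 with every BI tumor above and 2 with every BI tumor below every vehicle tumor, compared with 14.1% and 14.0% of all genes, or 28.1% in either direction.

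**Figure D1:**
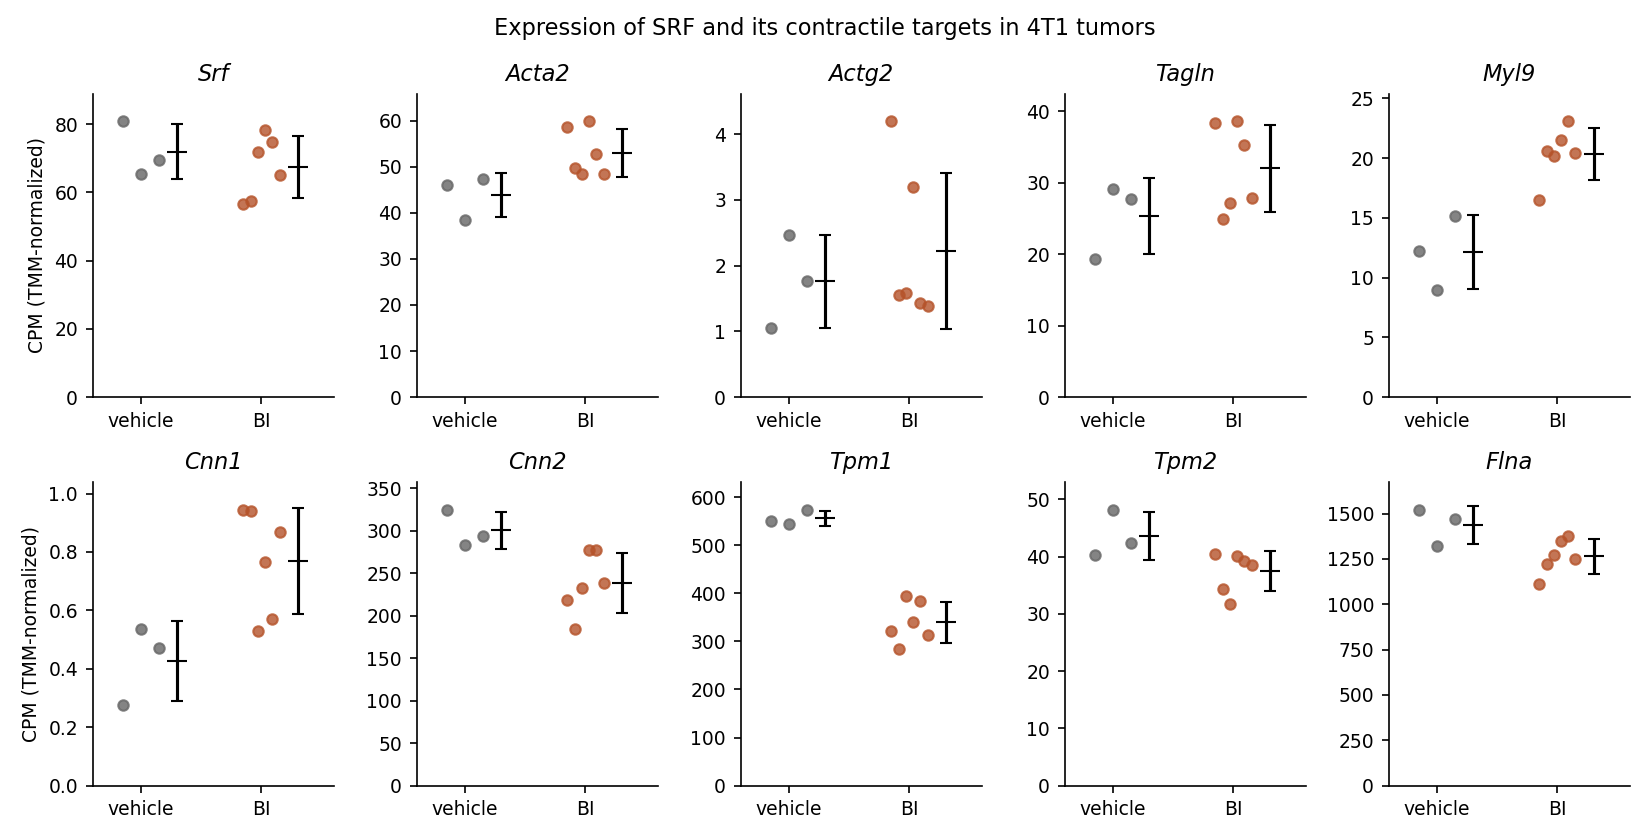
Expression of Srf and its 9 contractile targets in each tumor, in TMM-normalized CPM on linear axes from 0, with points for 3 vehicle and 6 BI tumors and the mean ± SD beside them. The BI tumors lie above all vehicle tumors for Acta2 and Myl9 and below them for Cnn2 and Tpm1, and the groups overlap for the other 6 genes.

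Srf itself (Entrez gene 20807), on chromosome 17 of mm9 from 46683788 to 46693111, is both the transcription factor and a target of its own protein. It had 80.9, 65.3 and 69.6 CPM in vehicle tumors 1 to 3 and between 56.5 and 78.2 CPM in the BI tumors, with a median of 68.4 CPM. The groups overlapped, with 3 of the 6 BI tumors below all vehicle tumors. Mean expression was 71.9 ± 8.04 CPM (SD, n = 3) and 67.3 ± 9.08 CPM (n = 6), a log2 fold change of -0.09 with a 95% interval from -0.33 to 0.14 (adjusted p = 0.552, edgeR). An increase of Srf RNA beyond 0.14 on the log2 scale lay outside this interval.

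Among the members of the smooth muscle group, Myl9 changed most clearly. Myl9 (Entrez gene 98932; chromosome 2, 156601156 to 156607394) encodes a regulatory light chain of myosin II, whose phosphorylation triggers contraction. It was at 12.2, 8.99 and 15.2 CPM in the vehicle tumors and at 16.5 CPM in the lowest, 20.5 CPM in the median and 23.1 CPM in the highest BI tumor. No BI tumor came down to the vehicle tumors, although BI 4 was close to vehicle 3. The mean went from 12.1 ± 3.11 CPM to 20.4 ± 2.18 CPM, an increase of 66.9% in the fit (log2 fold change 0.74, standard error 0.149, adjusted p = 0.00364 from edgeR). Whichever tumor was left out, its log2 fold change stayed between 0.57 and 0.94 and the adjusted p of the same test was at most 0.0173.

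Acta2 (Entrez gene 11475; chromosome 19, 34315580 to 34329826) encodes the smooth muscle alpha-actin by which myofibroblasts are usually recognized. The vehicle tumors had 46.1, 38.5 and 47.3 CPM, and the BI tumors had from 48.4 to 59.9 CPM with a median of 51.2 CPM. All 6 BI tumors were above the vehicle tumors, but BI 9 and BI 6 exceeded vehicle 3 by little. The mean rose from 43.9 ± 4.74 to 53 ± 5.1 CPM, or by 0.27 ± 0.0921 on the log2 scale (fitted value ± standard error; adjusted p = 0.0465 from edgeR; exact permutation test, two-sided, p = 0.0238, the smallest that 84 divisions of the tumors allow). This call was fragile: the adjusted p of the edgeR test was 0.0797, 0.204 and 0.0611 without vehicle 1, 2 or 3, and 0.0772, 0.085 and 0.0605 without BI 4, 7 or 8. Without vehicle 2, the lowest tumor, the log2 fold change was 0.18.

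The other smooth muscle members did not pass the adjusted threshold. Tagln (Entrez gene 21345; chromosome 9, 45737711 to 45744141), for the actin-binding protein transgelin, had 19.3, 29.1 and 27.7 CPM in the vehicle tumors and 24.9 to 38.6 CPM in the BI tumors. Only 3 of the 6 BI tumors were above all vehicle tumors, and the log2 fold change was 0.33 (95% interval -0.03 to 0.70, adjusted p = 0.157 from edgeR). The exons of Tagln overlap those of Pcsk7 on the opposite strand, and the sources used here do not state whether the counting used the strand, so that reads of the pair may not be told apart.

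Cnn1 (Entrez gene 12797; chromosome 9, 21903725 to 21914074) encodes calponin 1, a marker of differentiated smooth muscle, and was the rarest member. It had 6, 12 and 16 counts in the vehicle tumors and between 10 and 20 counts in the BI tumors, or 0.428 ± 0.136 and 0.77 ± 0.182 CPM. In 5 of 6 BI tumors it was above every vehicle tumor, and the log2 fold change was 0.83 (95% interval 0.11 to 1.54, adjusted p = 0.0784 from edgeR). Cnn1 entered the test through the BI tumors, since all 6 of them but only 1 of 3 vehicle tumors reached the filter's limit of 0.477 CPM. Actg2 (Entrez gene 11468; chromosome 6, 83462899 to 83486259), the gamma-actin of visceral smooth muscle, was also low, with 1.05, 2.46 and 1.77 CPM in the vehicle tumors and 1.39 to 4.2 CPM in the BI tumors. Its spread was wider than its difference (log2 fold change 0.35, 95% interval -0.53 to 1.23, adjusted p = 0.549 from edgeR). The actin genes encode nearly the same protein and only reads with a single alignment were counted, so that reads from stretches they share may be missing. How many was not measured.

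BI tumors 4 and 7 had the highest values of Acta2 (58.6 and 59.9 CPM), Actg2 (4.2 and 3.19 CPM) and Tagln (38.3 and 38.6 CPM). These 3 genes thus ranked the same pair of BI tumors first. Myl9 did not share this order, as BI 4 was the lowest BI tumor for Myl9 and BI 8 the highest. Cnn1 shared it only in part. BI 4 was its highest tumor (0.945 CPM), but BI 5 (0.939 CPM) and BI 9 (0.87 CPM) were above BI 7 (0.764 CPM). These were 20, 18, 15 and 17 counts, too few to rank the tumors.

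The members that many cell types express included the largest fall. Tpm1 (Entrez gene 22003; chromosome 9, 66870397 to 66897213) encodes a tropomyosin, which winds along actin filaments and stabilizes stress fibers. It had 550.1, 545 and 574 CPM in the vehicle tumors and 285, 331 and 395 CPM in the lowest, median and highest BI tumor. The groups were far apart compared with the spread within either. The mean was 556 ± 15.7 CPM in vehicle and 339.5 ± 42.3 CPM in BI tumors, so that Tpm1 fell by 39% in the fit (log2 fold change -0.71, standard error 0.0936, adjusted p = 0.000255 from edgeR). With each tumor left out, its log2 fold change stayed between -0.76 and -0.67.

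Cnn2 (Entrez gene 12798; chromosome 10, 79451329 to 79458807) encodes calponin 2, the calponin of non-muscle cells. It had 325, 283 and 294 CPM in the vehicle tumors and 185 to 278 CPM in the BI tumors, with a median of 236 CPM. All BI tumors were below all vehicle tumors, but BI 7 and BI 8, both at 278 CPM, were just under vehicle 2. The mean fell from 301 ± 21.8 to 238 ± 35.7 CPM, which the fit gave as -0.34 ± 0.113 on the log2 scale (± standard error; adjusted p = 0.0437 from edgeR). Like that of Acta2, this call was fragile, with adjusted p of 0.167, 0.0666 and 0.0963 without vehicle 1, 2 or 3 and 0.0716, 0.0663 and 0.0635 without BI 4, 6 or 9 in the same edgeR test.

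Flna (Entrez gene 192176; chromosome X, 71468800 to 71495159), for filamin A, which crosslinks actin filaments and ties them to integrins, had the most counts of the members. It had 1522, 1321 and 1471 CPM in the vehicle tumors and 1110.2 to 1378 CPM in the BI tumors, 4 of 6 below all vehicle tumors (log2 fold change -0.19, 95% interval -0.36 to -0.01, adjusted p = 0.108 from edgeR). Tpm2 (Entrez gene 22004; chromosome 4, 43527583 to 43536637), for beta-tropomyosin, had 40.2, 48.2 and 42.3 CPM in the vehicle tumors and 31.8 to 40.5 CPM in the BI tumors. In 5 of 6 BI tumors Tpm2 was below all vehicle tumors (log2 fold change -0.22, 95% interval -0.41 to -0.02, adjusted p = 0.0858 from edgeR). Both intervals stayed below 0 without adjustment, and neither gene passed over all genes tested.

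**Figure D2:**
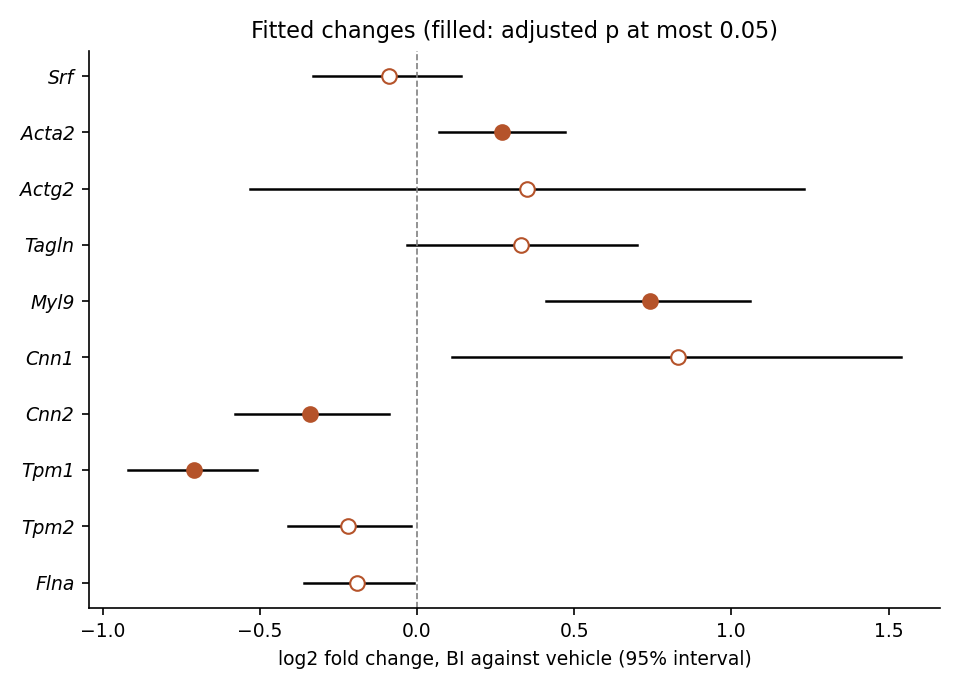
Fitted log2 fold changes of BI against vehicle for the 10 genes, with 95% intervals from edgeR's quasi-likelihood fit over 9 tumors; filled points passed an adjusted p of 0.05. Acta2 (0.27) and Myl9 (0.74) lie right of 0, Cnn2 (-0.34) and Tpm1 (-0.71) left of it, and the widest intervals belong to the rare Actg2 and Cnn1.

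Levels of different genes were compared per length, as CPM per kilobase of gene length (RPKM). Flna, Cnn2 and Tpm1 led in vehicle tumors with 172 ± 12.5, 169 ± 12.2 and 169.7 ± 4.8 RPKM and could not be ordered, as the ranges of neighbors overlapped. In BI tumors their means were 152 ± 11.5, 134 ± 20 and 104 ± 12.9 RPKM. A lower tier of Acta2, Tagln, Srf, Myl9 and Tpm2 lay between 11.2 and 17.6 RPKM in vehicle tumors, and in that tier too the ranges of neighbors overlapped. Actg2 (1.34 ± 0.535 RPKM in vehicle tumors) and Cnn1 (0.215 ± 0.0686 RPKM) were below all others in all 9 tumors. Per length, Cnn2 was thus above Cnn1, and Tpm1 above Tpm2, in all 9 tumors.

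The ratio of 2 genes within a tumor does not depend on how libraries are scaled, and 7 such ratios were compared, with counts divided by gene length. None passed after adjustment over the 7, although 4 had p below 0.05 in the exact permutation test before it. With 84 divisions, 4 of the 7 would have had to reach the smallest p, 0.0238, or all 7 a p of 0.0476, for any to pass. The log2 ratio of Cnn1 to Cnn2 was -10.36, -9.20 and -9.44 in the vehicle tumors and from -9.08 to -7.78 in the BI tumors, 1.21 higher on average and above in 6 of 6 tumors (p = 0.0238 in the two-sided exact permutation test, 0.0833 adjusted). Cnn1 had only 6, 12 and 16 counts in the vehicle tumors and passed the filter through the BI tumors. In this ratio BI 8 (-9.08) was close to vehicle 2 (-9.20). The log2 ratio of Cnn2 to Actb, the beta-actin of all cells, went from -3.79 ± 0.05 to -4.32 ± 0.13 and was below in 6 of 6 BI tumors (p = 0.0238 from the exact permutation test, adjusted p = 0.0833). Tpm1 against Tpm2 differed by -0.50, with 5 of 6 BI tumors below, and Acta2 against Srf by 0.37, with 5 of 6 above (both p = 0.0476 in the exact permutation test and 0.0833 adjusted). Acta2 against Actg2 differed by -0.01, a value whose sign changed without vehicle 1 (0.36), vehicle 3 (0.00), BI 4 (0.18) or BI 7 (0.09).

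**Figure D3:**
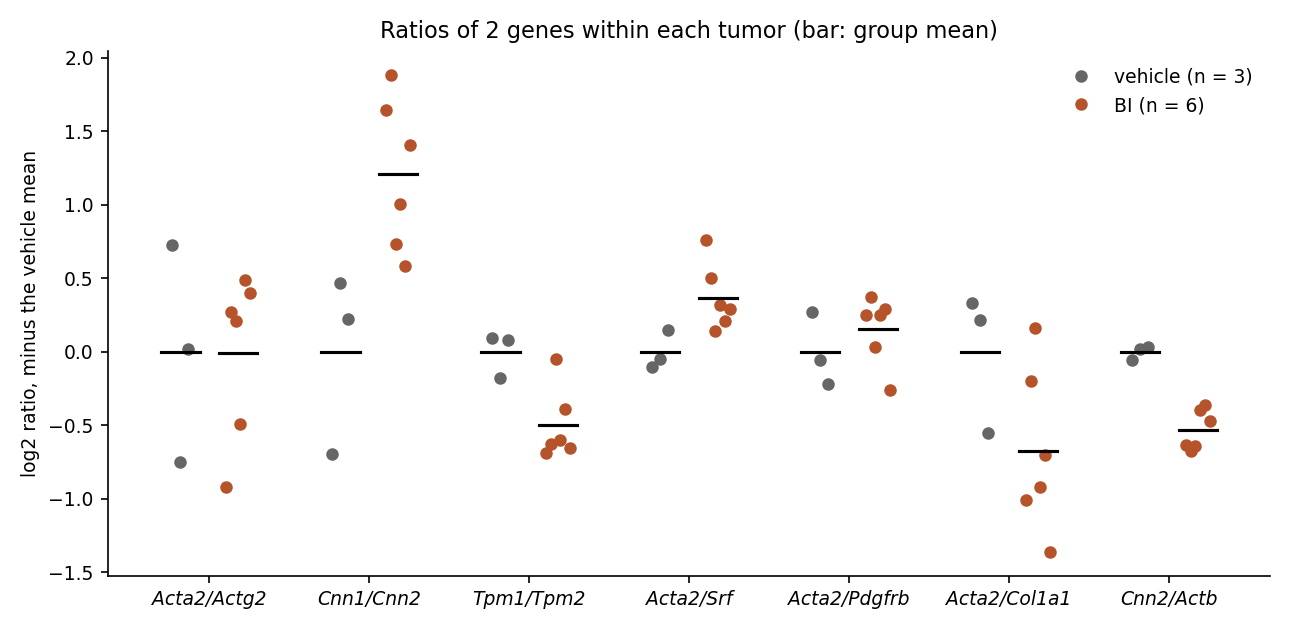
Log2 ratios of 2 genes in each tumor (counts divided by gene length), with the vehicle mean of each pair set to 0, for 3 vehicle and 6 BI tumors; bars are group means. Cnn1/Cnn2 lies higher and Cnn2/Actb lower in all 6 BI tumors, and no ratio passed after adjustment over the 7 pairs. Cnn1 had only 6 to 20 counts per tumor.

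Against markers of the cells that carry smooth muscle actin, Acta2 showed no difference that passed the test. Its log2 ratio to Pdgfrb, the receptor that marks pericytes and fibroblasts, was 0.70 ± 0.25 in vehicle and 0.86 ± 0.23 in BI tumors (p = 0.381 in the two-sided exact permutation test, 0.444 adjusted). Its ratio to Col1a1, the main collagen of fibroblasts, was -2.90 ± 0.48 and -3.57 ± 0.56, with 4 of 6 BI tumors below all vehicle tumors (p = 0.119 from the exact permutation test, adjusted p = 0.167). Pdgfrb was at 57.3 ± 11.8 and 61.5 ± 8.52 CPM. Col1a1 varied widely, from 449 to 944 CPM in vehicle and from 590.4 to 1692 CPM in BI tumors. It did not pass with all tumors (log2 fold change 0.96, adjusted p = 0.0538 from edgeR). It passed without a filter on low counts (0.0432), with limma-voom (0.0479), and without vehicle 3 (0.0282), BI 5 (0.0357) or BI 6 (0.016). With any of the other 6 tumors left out it did not pass (adjusted p up to 0.187 from edgeR), nor under the other 4 alternatives.

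Among the partners of SRF, 1 gene passed. In this list and those that follow, numbers called can be set beside all genes tested, of which 14.6% rose and 14.1% fell. Of 6 cofactor genes, 5 were tested, Elk3 fell and none rose (0 also in DESeq2 and limma-voom, and 1, Mrtfa, before adjustment in edgeR). Mrtfa, for the actin-sensing coactivator MRTF-A, was at 45.8 ± 2.35 CPM in vehicle and 51.5 ± 3.54 CPM in BI tumors (log2 fold change 0.17, 95% interval 0.02 to 0.32, adjusted p = 0.0848 from edgeR). Its relative Mrtfb was at 70.4 ± 4.93 and 64.6 ± 3.81 CPM (log2 fold change -0.12, 95% interval -0.27 to 0.02, adjusted p = 0.179 from edgeR). Elk3, the most abundant of the ternary complex factors, fell from 203 ± 8.27 to 178 ± 9.26 CPM (log2 fold change -0.19, adjusted p = 0.0266 from edgeR). It lost the call without vehicle 1 (0.118), vehicle 3 (0.0694) or BI 8 (0.0594). Elk1 and Elk4 had log2 fold changes of 0.00 and -0.03. Myocd, for myocardin, the SRF partner of smooth muscle and heart, had 0 to 6 counts per tumor and was not tested.

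Of 25 other contractile and actin-binding targets of SRF, 6 fell, 1 rose and 18 did not pass, with a median log2 fold change of -0.06. Of all genes tested, 14.1% fell and 14.6% rose, or 28.7% in either direction. Among listed genes known from smooth muscle, Smtn (-0.19), Mylk (-0.31), Synpo2 (-0.34) and Des (-0.02) had negative log2 fold changes. Myh11 (0.59) and Lmod1 (0.68) had positive ones, and none of these genes, picked with their values known, passed. Csrp1 and Cald1, which smooth muscle and other cells make, did pass and are given below, Csrp1 as higher and Cald1 as lower. Actn1, Cald1, Vcl, Fhl2 and Cnn3 were among the genes that fell. Actn1, for the crosslinker alpha-actinin, went from 485 ± 23.6 to 368 ± 15.2 CPM (log2 fold change -0.40, adjusted p = 0.000467 from edgeR). Cald1, for caldesmon, which regulates actomyosin, was the most abundant of the list and went from 929 ± 89.2 to 642 ± 84.7 CPM (log2 fold change -0.53, adjusted p = 0.00364 from edgeR). Both genes, like Tpm1, encode parts of stress fibers that non-muscle cells also make.

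Falls were also measured for the adhesion protein gene Vcl, encoding vinculin (log2 fold change -0.48), for Fhl2 (-0.91), which encodes a LIM protein that binds SRF, and for Cnn3 (-0.37), the gene of the third calponin, with all 6 BI tumors below all vehicle tumors in each. The same held for 14.0% of all genes tested, and Vcl, Fhl2 and Cnn3 were named after their values were seen. The adjusted p from edgeR were 0.00053, 0.00661 and 0.044, and Cnn3 lost the call without any of vehicle 1 (0.0986), vehicle 2 (0.0847), vehicle 3 (0.144), BI 4 (0.0724) or BI 9 (0.0716). The rise was that of Csrp1, for a LIM protein of smooth muscle and other cells, from 218 ± 10.2 to 293 ± 29.5 CPM (log2 fold change 0.43, adjusted p = 0.00344 from edgeR). The number that rose was 2 with RLE or library size scaling, with the filter of at least 1 CPM in 3 tumors, with DESeq2, and without BI 6 or BI 8.

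Among 7 actin and myosin genes of all cells, Myh10, the heavy chain of non-muscle myosin IIB, fell from 172 ± 8.65 to 133 ± 14.1 CPM (log2 fold change -0.37, adjusted p = 0.00761 from edgeR). The other 6 did not pass, among them Actb, which was at 4409 ± 469 and 5002 ± 401 CPM (log2 fold change 0.18, adjusted p = 0.182 from edgeR). Of 10 immediate early targets, which SRF shares with the ternary complex factors, 3 fell (Ccn1, Egr1 and Fosb), 1 rose (Mcl1) and 6 did not pass. Over all genes tested, the shares were 14.1% lower and 14.6% higher. Ccn1, a matrix protein gene that YAP also controls, fell from 140.4 ± 21.5 to 91.9 ± 20.3 CPM (log2 fold change -0.61, adjusted p = 0.0178 from edgeR; 0.102 without vehicle 3). The transcription factor gene Egr1 fell from 56 ± 8.43 to 44.3 ± 3.97 CPM (log2 fold change -0.34, adjusted p = 0.0216 from edgeR). Without vehicle 1, its log2 fold change was -0.21 with an adjusted p of 0.131, and only 1 of the 10 genes fell. Mcl1, a survival gene of the BCL2 family, rose by a log2 fold change of 0.21 (adjusted p = 0.0222 from edgeR; 0.0743 without vehicle 1 and 0.109 without vehicle 3). Fosb fell by 0.50 on the log2 scale (adjusted p = 0.0322 from edgeR). It lost the call without vehicle 1 (0.059), vehicle 2 (0.17), BI 4 (0.0547), BI 5 (0.0528), BI 7 (0.0583), BI 8 (0.0501) or BI 9 (0.0529).

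Of 18 genes that lead from RhoA to actin, 6 rose, 2 fell and 10 did not pass, compared with 14.6% of all genes that rose and 14.1% that fell. Limk1, a kinase that inactivates cofilin, rose from 31.1 ± 1.51 to 46.7 ± 4.93 CPM (log2 fold change 0.59, adjusted p = 0.000661 from edgeR), and the GTPase gene Rhob rose from 168 ± 16.6 to 239 ± 25.2 CPM (0.51, adjusted p = 0.00218 from edgeR). Rock2, a kinase that RhoA activates, fell from 414 ± 25.4 to 341 ± 10.5 CPM (log2 fold change -0.28, adjusted p = 0.00387 from edgeR), and the formin gene Diaph3 fell from 51.4 ± 6.85 to 36 ± 4.6 CPM (-0.51, adjusted p = 0.00574 from edgeR). The related kinase gene Rock1 did not pass (-0.01, adjusted p = 0.902 from edgeR), and the formin gene Diaph1 rose (0.23, adjusted p = 0.0398 from edgeR). Cfl1, for cofilin, the most abundant of the list, was close to the threshold (log2 fold change 0.24, adjusted p = 0.0489 from edgeR). It lost the call with library size scaling (0.0525), without a filter (0.0634), and without vehicle 1 (0.0861), vehicle 2 (0.107), vehicle 3 (0.18), BI 4 (0.059), BI 6 (0.0524), BI 7 (0.0919), BI 8 (0.0733) or BI 9 (0.0751). Without vehicle 2 or vehicle 3, 2 genes of this list rose.

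**Figure D4:**
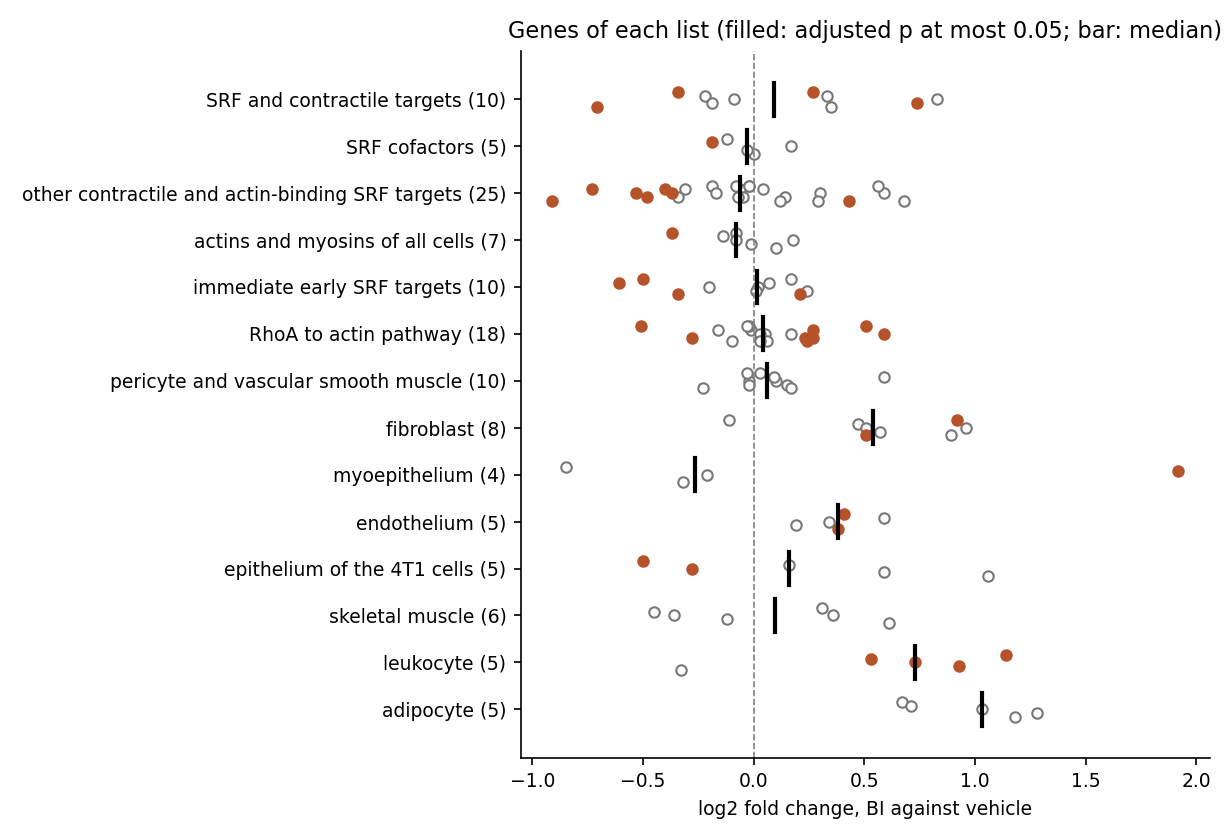
Log2 fold changes of BI against vehicle for each gene of the lists, with the number of genes tested in parentheses; filled points passed an adjusted p of 0.05 in edgeR and bars are medians. Genes of the contractile and actin-binding list lie mostly left of 0 where filled (6 of 7), pericyte and vascular smooth muscle genes cluster near 0 with a median of 0.06, and fibroblast and leukocyte genes lie mostly to the right. Of all genes tested, 14.1% passed as lower and 14.6% as higher.

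Markers of other cells moved with the treatment too, and their part in the results above was not tested. Their numbers called can also be set beside the 14.6% of all genes tested that rose and the 14.1% that fell. For the cells that make the contractile proteins, none of 10 pericyte and vascular smooth muscle genes passed in either direction (0 also before adjustment in edgeR, and 0 in DESeq2 and limma-voom). Their summed level was 199.5 to 242 CPM in vehicle and 222 to 276 CPM in BI tumors, with Notch3 the most abundant (81.7 ± 10.8 and 90.4 ± 17.1 CPM) and Myh11, the myosin of smooth muscle, at 3.25 ± 1.51 and 4.96 ± 1.56 CPM. Of 8 fibroblast genes 2 rose and none fell, with sums of 1945 to 3355 and 2580 to 5782 CPM. These were Thy1 (log2 fold change 0.51, adjusted p = 0.0116 from edgeR) and Col1a2 (0.92, adjusted p = 0.0437 from edgeR). Thy1 lost the call without vehicle 1 (0.0586) or vehicle 2 (0.0528), so that the number that rose was 0 without either. Col1a2 also lost it without BI 4 (0.0697), BI 7 (0.0785), BI 8 (0.0569) or BI 9 (0.0709), and 4 of the 8 genes rose without a filter on low counts and without vehicle 3, BI 5 or BI 6.

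Myoepithelial genes, which would also go with Acta2, were low, with sums of 0.939 to 5.63 and 1.32 to 5.74 CPM. Of 4 tested, 1 passed, Oxtr, with 3, 3 and 11 counts in the vehicle tumors, or 0.199 ± 0.109 CPM, and 0.823 ± 0.528 CPM in BI tumors (adjusted p = 0.0289 from edgeR; 0.0998 without vehicle 1, 0.0967 without vehicle 2 and 0.0509 without BI 7). Like Cnn1, Oxtr entered the test through the BI tumors, as no vehicle tumor reached the filter's limit. Skeletal muscle genes, of which none of 6 tested passed, summed to 7.7 to 22.7 and 7.47 to 17.5 CPM. Of 5 markers of the 4T1 epithelium, Krt18 fell from 579 ± 57.7 to 409 ± 58.3 CPM (log2 fold change -0.50, adjusted p = 0.00636 from edgeR) and Krt8 fell by 0.28 on the log2 scale (adjusted p = 0.0444 from edgeR). The other markers, Epcam (1.06), Krt7 (0.59) and Cdh1 (0.16), had positive log2 fold changes and did not pass. The median of the list was 0.16. The call of Krt8 was lost with the filter of at least 1 CPM (0.0523) and without vehicle 1 (0.138), vehicle 2 (0.195), BI 6 (0.0747), BI 7 (0.0845), BI 8 (0.0651) or BI 9 (0.0741). The sum of the list, made up mostly of Krt8 and Krt18, was 950.5 to 1177 CPM in vehicle and 747 to 956 CPM in BI tumors. Epcam of the same list, at 2.13 ± 0.603 and 4.42 ± 2.96 CPM, passed as higher with DESeq2 (adjusted p = 0.0426) and without BI 4 (adjusted p = 0.0495 from edgeR; 0.0987 with all tumors).

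Of 5 leukocyte genes, Ptprc, Itgam, Adgre1 and Cd3e rose, and the list summed to 598 to 702 CPM in vehicle and 918 to 1131 CPM in BI tumors. The B cell gene Cd79a did not pass and had a log2 fold change of -0.33 (adjusted p = 0.421 from edgeR). Cd3e, a chain of the T cell receptor complex, had the largest log2 fold change of the list, 1.14, and Adgre1, the macrophage marker F4/80, had 0.93. Of 5 endothelial genes, Kdr (log2 fold change 0.38) and Cdh5 (0.41) rose, with sums of 154 to 178 and 175 to 251 CPM. They passed at adjusted p of 0.0214 and 0.0231 from edgeR. Kdr did not pass without vehicle 2 (0.0898) or 3 (0.0754), Cdh5 did not without vehicle 1 (0.0871) or 3 (0.0937), and 4 genes rose with DESeq2 and without BI 8. None of 5 adipocyte genes passed in edgeR (1, Fabp4, did before adjustment), with sums of 33 to 55 and 50.9 to 252 CPM, though 1 did without BI 4 or BI 6.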

How the data were processed

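Per the labels and the methods, total RNA of 9 snap-frozen 4T1 tumors was sequenced from both ends after stranded messenger RNA preparation. The authors aligned reads to mm9 with STAR, kept single alignments and deposited raw counts per RefSeq gene, made with QuasR as reads starting in an annotated exon, without normalization. The deposited gene lengths are in bases and have no stated origin. Strand use in counting is not given in the sources used here.

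RefSeq gave symbols for 18700 of the 18755 identifiers, and GENCODE gave mm9 positions by symbol. BI was tested against vehicle over all genes with edgeR 4.0.16 in R 4.3.3: TMM, filterByExpr (minimum count 10, minimum total 15), the quasi-likelihood F test without covariates and Benjamini-Hochberg adjustment, called at 0.05. Single values used exact two-sided permutation tests over all 84 divisions (scipy 1.17.1). Pairs of tumors in a group had a chi-square per gene of 8.7 to 29.5 on average, above the sampling noise of 1, and each tumor counted as a replicate. The test was tested on simulated data.

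Alternatives were RLE or library size scaling, no filter, at least 1 CPM in at least 3 tumors, DESeq2 1.42.0, limma-voom (3.58.1), 0.5 added counts for ratios, and leaving out each tumor. Genes named were the members, per list the most abundant and up to 2 called genes per direction with the smallest p, and 5 genes correlated with Acta2. The values of 1 gene that this rule names are not reported here. Mrtfa, Mrtfb, Elk1, Elk4, Myocd, Vcl, Fhl2, Cnn3, Fosb, Pdgfrb, Myh11, Epcam and Ptprc were named after their values were seen. So were Smtn, Mylk, Synpo2, Des, Lmod1, Rock1, Diaph1, Krt7, Cdh1 and Cd79a, whose single values were left out of the checks below. The members and lists were chosen with earlier results of these data known. Promoter sequences are RefSeq's on GRCm38.p6, not the build of the counts.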

Additional observations from a re-analysis of the deposited data

Results flagged for a closer look

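No member and no ratio of 2 genes held a tumor far from the rest of its group, where a tumor counts as far when its gap to the next, divided by the range of its group, exceeds Dixon's 95% limit for 6 tumors. Among the other genes named, 3 did, each through BI tumor 9. Krt14 was at 1.33 CPM in BI 9 and at 0.209 to 0.514 CPM in the other BI tumors. Fabp4, an adipocyte gene, was at 210.4 CPM against 41 to 102 CPM. Epcam was at 10.3 CPM against 1.98 to 4.18 CPM. Such a test flags about 1 in 20 groups by chance, and 3 of 66 groups were flagged here. The vehicle group, with 3 tumors, was not tested.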

How the results depend on the processing

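The direction of each of the 10 members was the same under every alternative run, but for Srf and Actg2 it was barely defined. With a tumor left out, Srf came to -0.00 and Actg2 to 0.07 on the log2 scale. Their adjusted p reached 0.985 and 0.904 in edgeR. Myl9 and Tpm1 passed under every alternative, and Cnn1 could not be fitted with the filter of at least 1 CPM in 3 tumors. Of the 2 members that rose, 1 remained with library size scaling and 1 without a filter, where Acta2 had adjusted p of 0.0538 and 0.0554 in edgeR. Of the 2 that fell, 1 remained with the filter of at least 1 CPM, where Cnn2 had 0.0509. With each tumor left out, 1 to 2 members rose and 1 to 2 fell, while 1332 to 2026 of all genes rose and 1172 to 1980 fell. The lowest of these numbers came without vehicle 3, and 1289 genes fell without vehicle 1. No ratio of 2 genes passed under any alternative, and with 2 vehicle tumors the smallest exact p is 0.0714. Signs changed with a tumor left out for Krt14 (-1.32 to 0.09), Elk1 (-0.04 to 0.04), Elk4 (-0.07 to 0.02) and the ratio Acta2/Actg2 (-0.38 to 0.36). The cause was not tested. No paired analysis was possible because the groups share no replicate numbers. Cnn1, at 6 to 20 counts per tumor, is limited by depth.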

Other observations

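Outside the members, the 5 genes whose log2 CPM followed that of Acta2 most closely over the 9 tumors were Abhd15, Mx1, Them6, Snx17 and Icosl, among genes with a mean log2 CPM of at least 1. Their Pearson correlations with Acta2 were 0.943, 0.936, 0.928, 0.921 and 0.917, and Spearman's rho was 0.867, 0.95, 0.767, 0.833 and 0.833. These are the highest among all genes examined and include the difference between the treatment groups, so they are a description without a test. Abhd15 was at 1.83 ± 0.569 CPM in vehicle and 3.78 ± 1.08 CPM in BI tumors, and the interferon-induced gene Mx1 at 10.7 ± 0.722 and 15.7 ± 3.08 CPM. None of the 5 belongs to the contractile or pericyte lists.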
